A study of Mus musculus with 201 samples.

Results

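GABA-A receptors are chloride channels built from 5 subunits around a central pore, and they carry most fast inhibition in the brain. Alpha and beta subunits form the binding site for GABA, and a gamma or delta subunit completes most receptors. Receptors with a gamma subunit sit largely at synapses, whereas those with alpha4 and delta, found in dentate granule cells, and many with alpha5, found in pyramidal cells, lie outside synapses and carry tonic inhibition. Hippocampal levels of 7 subunit genes are described here, namely Gabra3, Gabra4, Gabra5, Gabrb1, Gabrb2, Gabrd and Gabrg1. Every probe set that the array annotation assigned to 1 of these genes alone was taken, which gave 18 of the 45037 tested probe sets and 7 of the 18193 genes so named.

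Pooled hippocampal RNA of 100 mouse strains was hybridised to 201 Affymetrix M430 2.0 arrays, without any treatment. The BXD panel, recombinant inbred strains derived from C57BL/6J and DBA/2J, comprised 68 strains, 29 of the earlier and 39 of the later series. The CXB panel, derived from BALB/cByJ and C57BL/6ByJ, comprised 13 strains. A further 13 classical inbred strains were 129S1/SvImJ, A/J, AKR/J, BALB/cByJ, BALB/cJ, C3H/HeJ, C57BL/6ByJ, C57BL/6J, DBA/2J, KK/HIJ, LG/J, NOD/LtJ and NZO/HlLtJ. The 4 wild-derived strains were CAST/EiJ, PWD/PhJ, PWK/PhJ and WSB/EiJ, and the 2 reciprocal F1 hybrids were B6D2F1 and D2B6F1. Pools held 1 to 4 mice aged 41 to 196 days (median 62 days), and most strains had 1 female and 1 male pool. Hippocampi were dissected whole with varying amounts of subiculum and fimbria. In such bulk tissue, fewer cells of a type and less RNA per cell cannot be told apart.

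Levels are PDNN values, a log-like summary of the probes of a probe set whose base is not stated, so differences are given in PDNN units and not as folds. Strain values are fitted with sex and array batch removed. A call is an adjusted p under 0.05 in limma with Benjamini-Hochberg adjustment over all tested probe sets, and n is a number of strains unless arrays are named. Affymetrix called between 43.3% and 55.3% of probe sets present per array (median 50%). By mean value, the members lay between percentile 34 (Gabra3 1421263_at) and percentile 97.4 (Gabra5 1433602_at) of all probe sets. Gabrd 1457763_at and Gabrg1 1427227_at were also low, at 36.2 and 43.5. The file headers of 7 arrays disagreed with their labels in strain, sex or batch, among them both BXD14 arrays, a PWD/PhJ array and a D2B6F1 array. The headers of 8 further arrays, of BXD48a, BXD65a, BXD65b and BXD73a, give another BXD number. They were taken as former names of these lines and not counted among the 7. The tissue label was checked against marker lists, by the percentile of each marker's mean value among all probe sets. The 8 pyramidal and the 8 dentate granule neuron markers had median percentiles of 89.7 and 84.2. Choroid plexus and thalamus, which are not hippocampal, had medians of 74.6 and 69.8, so their markers were not absent.

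Upstream stretches of a pair of genes are shown because Gabrb2 carried the strongest strain differences and Gabrg1 the difference between wild-derived and classical strains. They come from RefSeq (GRCm38.p6), run 5′ to 3′, and carry the TATA motif TATAAA in capitals where it occurs. The Gabrb2 stretch lies at chr11:42420398-42420427 on the plus strand, and its motif ends 24 bases before a listed start of the gene. The Gabrg1 stretch, at chr5:70842618-70842867 on the minus strand, is the 250 bases before the listed start and holds no TATAAA on either strand.
Gabrb2: tccccctcctgcTATAAAtagctggactag
Gabrg1: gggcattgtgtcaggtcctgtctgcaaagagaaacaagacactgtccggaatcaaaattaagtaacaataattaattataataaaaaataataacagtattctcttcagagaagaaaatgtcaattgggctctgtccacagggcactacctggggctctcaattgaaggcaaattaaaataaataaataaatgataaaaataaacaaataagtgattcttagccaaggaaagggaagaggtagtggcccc
RefSeq windows were listed for 6 of the 7 genes, 10 windows in all. TATAAA was found on either strand in 3 of them, 1 of Gabrb2 and 2 overlapping windows of Gabra3, against 12.37% of all 32851 windows of 250 bases. The cAMP response element TGACGTCA was in none of the 10 and in 1.55% of all.

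The first question was whether the subunits differed among the BXD strains beyond the spread between arrays of a strain. Strain differences were called for 4 of the 18 probe sets, 3 of Gabrb2 and the single one of Gabra5, against 8.38% of all probe sets. The 3 of Gabrb2 followed each other closely (r = 0.915 to 0.987 over the BXD strains), so they are not separate readings. By brightest probe set 1 of the 7 genes was called, Gabra5. Strain differences were not called for any probe set of Gabra3, Gabra4, Gabrb1, Gabrd or Gabrg1.

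Gabrb2 encodes the beta2 subunit, a common partner of alpha1 at synapses. Its probe set 1429685_at ranged from 8.91 in BXD73a to 10.16 in BXD45 over the 68 BXD strains, with a median of 9.47 and an SD of 0.320. The arrays of these extreme strains, chosen by these values, read 8.87 and 9.07 in BXD73a and 10.19 and 9.94 in BXD45. The BXD13 arrays lay further apart, at 8.78 and 9.58, and the header of the second disagrees with its label in batch. The share of variance between strains, the intraclass correlation, was 0.714 (adjusted p = 2.43e-10). Probe set 1428205_x_at ranged from 9.04 to 9.98 (intraclass correlation 0.602, adjusted p = 8.72e-07, and not called with MAS5 values). Probe set 1428204_at ranged from 9.24 to 10.13 (0.436, adjusted p = 0.00142), and its call was lost with MAS5 values (0.311, adjusted p = 0.116), with RMA values (0.308, adjusted p = 0.0535, or 0.0492 without the columns that match other arrays) and without a batch term (0.271, adjusted p = 0.0976). Both were lowest in BXD73a, whose array headers give another BXD number, taken as a former name. Both were highest in BXD14, whose array headers name another strain. The arrays of a technical duplicate of 1 B6D2F1 pool differed by 0.616 at 1429685_at, 0.535 at 1428205_x_at and 0.57 at 1428204_at, against full BXD ranges of 1.25, 0.949 and 0.89. The duplicate arrays were run in batches 1 and 6 and were not adjusted for batch, whereas the BXD ranges were. The brightest Gabrb2 probe set, 1428203_at, spanned only 9.72 to 10.15, and its strain difference was not called (intraclass correlation 0.128, adjusted p = 0.451). The remaining probe set, 1450319_at, was not called either (0.0701, adjusted p = 0.56).

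The 3 called Gabrb2 probe sets ranked the BXD strains alike, and the brightest did not follow them. Pearson's r between 1428205_x_at and 1429685_at was 0.944 over 68 strains (Spearman's rho 0.925, permutation p = 1e-05 for each, the smallest that 100000 permutations can give, adjusted p = 4e-05 over 20 pairs of probe sets of 1 gene). It was 0.941 without the 2 strains farthest from the median, and 0.567 over the 13 CXB strains. Against the brightest probe set, 1429685_at had r = -0.105 (permutation p = 0.39, adjusted p = 0.46) and rho = -0.091 (permutation p = 0.46). The x in the name of 1428205_x_at marks probes that Affymetrix regarded as open to cross-hybridisation. The probe sequences, and so the part of the transcript each probe set reads, were not analysed here.

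**Figure D1:**
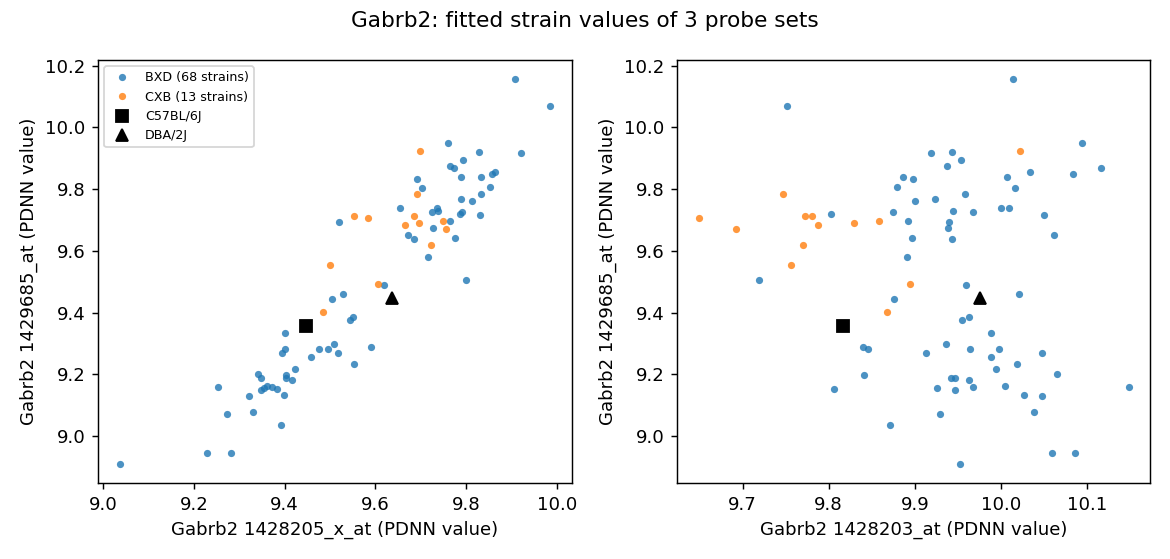
Fitted values of Gabrb2 probe set 1429685_at (vertical axis, PDNN units) against 1428205_x_at (left) and the brightest probe set 1428203_at (right, horizontal axes in PDNN units). Each circle is a strain, blue for 68 BXD and orange for 13 CXB strains, and black marks show C57BL/6J and DBA/2J. The BXD strains follow a line on the left (r = 0.944) and none on the right (r = -0.105), and both parents lie in the middle of the vertical range.

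Neither parent marked the range of the BXD strains at 1429685_at. C57BL/6J was fitted at 9.36 and DBA/2J at 9.45. Of 68 BXD strains, 30 lay below both parents, 35 above both and 3 between them. The C57BL/6J arrays read 9.47, 9.18 and 9.48, and those of DBA/2J 9.30 and 9.51, so the parents overlapped. The difference was 0.0898 ± 0.163 (SE, adjusted p = 0.874). C57BL/6ByJ, a sister substrain of C57BL/6J, read 9.98 and 9.69, above all 3 C57BL/6J arrays, but the fitted difference of -0.512 ± 0.163 was not called (adjusted p = 0.277).

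Genes near Gabrb2 on chromosome 11 shared its strain pattern more often than genes elsewhere, a pattern looked at after the values were seen. Among 77 probe sets of named genes within 5 Mb, 7 had an r of at least 0.5 in size with 1429685_at (9.09%), against 14 of 34863 probe sets elsewhere (0.04%). The 7 belonged to 5 genes, with 3 probe sets of Pttg1, and 3 of the 7 values were negative. The same share for the brightest Gabrb2 probe set was 13% nearby and 14.9% elsewhere. Cyfip2, which encodes a regulator of actin assembly, had r = 0.801 over the BXD strains and 0.705 over the CXB strains. Pttg1, which encodes securin, split the BXD strains into groups of 33 and 35 with a gap between them. Within those groups its probe set 1438390_s_at had r = 0.029 and r = 0.309 with 1429685_at, so no pooled r is given. Thg1l likewise had r = -0.246 and 0.095 within its groups of 35 and 33. Adam19 and Slu7 had r = -0.624 and -0.564 over the BXD strains, but -0.351 and 0.142 over the CXB strains. Within the Pttg1 groups of 33 and 35 strains, 1428205_x_at and 1429685_at still went together (r = 0.845 and 0.864). These strains share the parental chromosome segments they inherited, and the r values are descriptive.

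Gabra5 encodes the alpha5 subunit, which is abundant in hippocampal pyramidal cells. Its probe set 1433602_at ran from 9.75 in BXD85 to 10.18 in BXD13 (median 9.94, SD 0.102). The 3 arrays of BXD85 read 9.67, 9.75 and 9.74, and those of BXD13 10.16 and 10.18, strains that were picked as the extremes. The intraclass correlation was 0.346 (adjusted p = 0.0241), and the call was lost with MAS5 values. Of the BXD strains, 33 lay above both parents and 6 below both. C57BL/6J was fitted at 9.95 and DBA/2J at 9.80, a difference that was not called (adjusted p = 0.505).

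The other 5 genes varied little beyond the spread between arrays. Gabra4, the alpha4 subunit of extrasynaptic receptors in granule cells, had a BXD strain SD of 0.085 at its brightest probe set and an intraclass correlation of -0.034. Gabrd, the delta subunit that pairs with alpha4, had an SD of 0.108 (intraclass correlation 0.154, adjusted p = 0.36). Gabra3, the alpha3 subunit, ran from 8.04 in BXD48a to 8.50 in BXD44 (0.214, adjusted p = 0.206). Gabrb1 and Gabrg1, the beta1 and gamma1 subunits, had intraclass correlations of 0.0985 and 0.18 (adjusted p = 0.518 and 0.311). Among the 13 CXB strains no member was called in limma, against 1.09% of all probe sets. At an unadjusted p under 0.05 in limma there was 1 of 18, against 3592 of all 45037 probe sets. It was the brightest of Gabrg1 (intraclass correlation 0.468, adjusted p = 0.544).

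**Figure D2:**
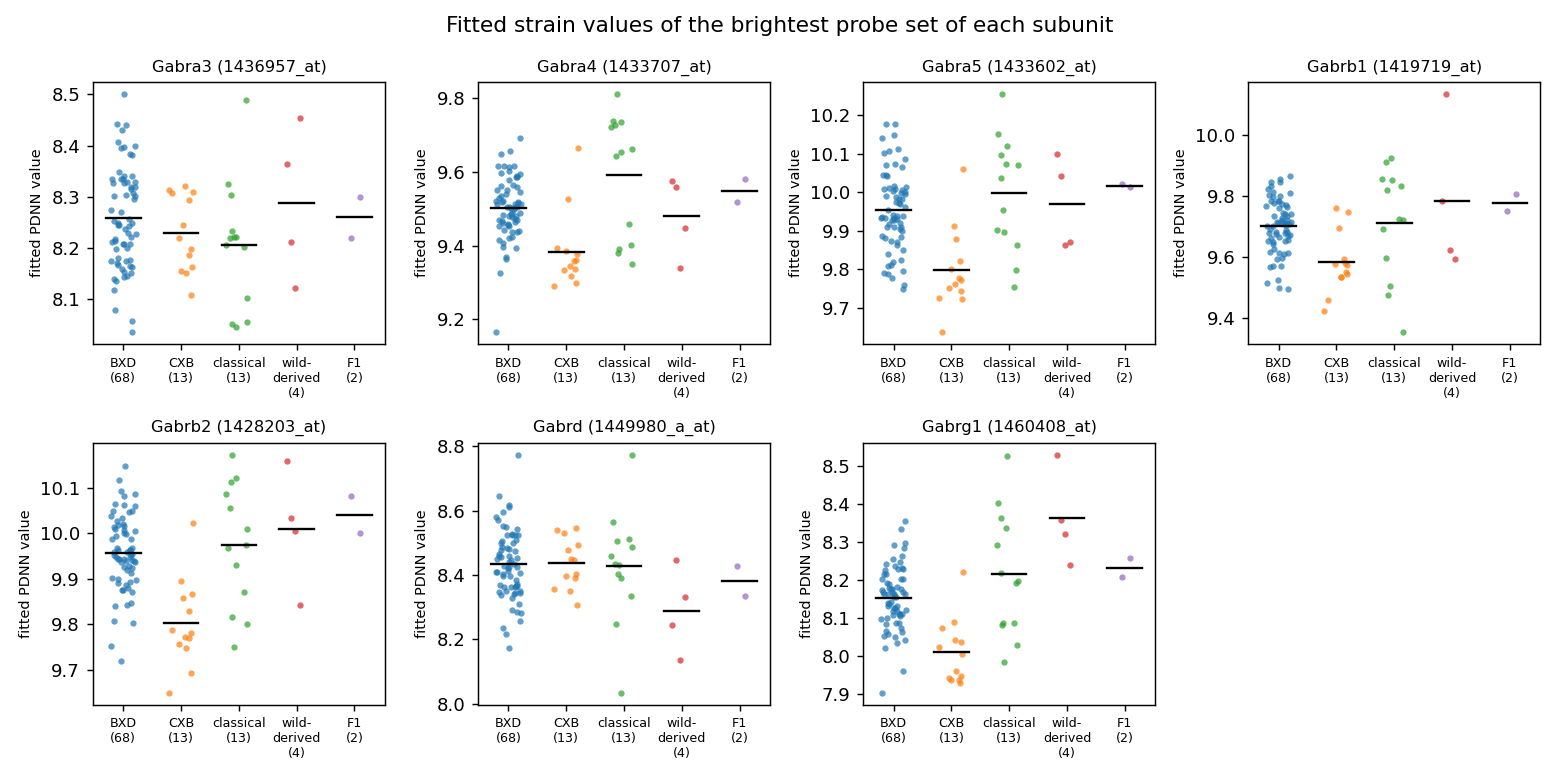
Fitted strain values (vertical axes, PDNN units) of the brightest probe set of each of the 7 subunit genes, by panel with the number of strains in brackets. Each point is a strain and each black line a panel mean. The CXB strains lie lower than the BXD strains for Gabra4, Gabra5, Gabrb1, Gabrb2 and Gabrg1, with overlap in every panel, and Gabrd lies at 8.43 in the BXD and 8.44 in the CXB strains.

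DBA/2J was compared with C57BL/6J as the parents of the BXD panel. Gabrb1 was higher in DBA/2J at 2 of its 4 probe sets, and no other member was called. Gabra4 1429330_at fell just short of a call (0.474 ± 0.162 SE higher in DBA/2J, adjusted p = 0.057). The called share was 2 of 18, against 7.24% of all probe sets. At 1419719_at the 3 C57BL/6J arrays read 9.51, 9.62 and 9.37, and the 2 DBA/2J arrays 9.93 and 9.81, without overlap (difference 0.357 ± 0.113 SE, adjusted p = 0.0335). At 1443205_at they read 8.80, 8.66 and 8.54 against 9.19 and 9.26, again without overlap (0.785 ± 0.239 SE, adjusted p = 0.0249). The remaining Gabrb1 probe sets differed by 0.0883 ± 0.110 and 0.0461 ± 0.133 and were not called. In the 1 batch that held both strains the differences of the 2 called probe sets were 0.433 and 0.719, from 1 array each. These 2 did not follow each other, with r = -0.039 over the BXD and -0.083 over the CXB strains. The probe set that followed 1419719_at over the BXD strains, 1435095_at (r = 0.698), was the one that differed by 0.0883.

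The Gabrb1 difference rested on few arrays. Neither probe set was called without C57BL/6J replicate 3 (0.247 and 0.725) or without DBA/2J replicate 1 (0.244 and 0.587), and 1443205_at was also lost without C57BL/6J replicate 2 (0.738). Both were lost without a batch term (adjusted p = 0.0506 and 0.383) and with the spread set by inbred strains and F1 hybrids only (0.333 and 0.194). With the share called present as a covariate 1419719_at was lost (adjusted p = 0.0501). That share had a median of 47.7% in C57BL/6J and 51.4% in DBA/2J, and the 3' to 5' beta-actin ratio, a measure of RNA integrity, was 1.67 and 1.29 (medians of 3 and 2 arrays). Their part was not tested. The technical duplicate of a B6D2F1 pool read 8.70 and 9.48 at 1443205_at, a gap of 0.783 that is about as large as the parental difference. These arrays were run in batches 1 and 6. Their gap has no batch effect removed, unlike the fitted parental difference. Oligodendrocyte markers were lower in DBA/2J for 6 of 7 genes, with a mean deviation from the average strain of -0.527 over the list, against 0.102 in C57BL/6J. Their part in the Gabrb1 difference was not tested. Among the BXD strains 63 of 68 lay between the parents at each of these probe sets.

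**Figure D3:**
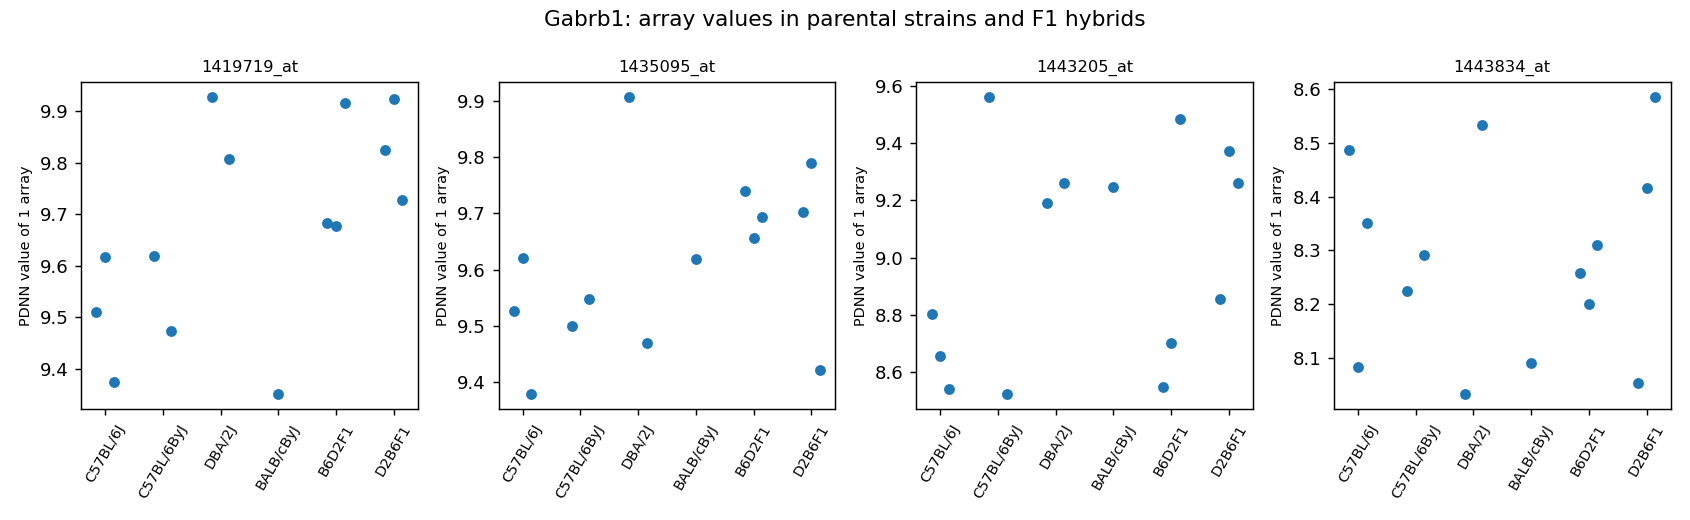
Array values (vertical axes, PDNN units, not adjusted for batch) of the 4 Gabrb1 probe sets in C57BL/6J, C57BL/6ByJ, DBA/2J, BALB/cByJ, B6D2F1 and D2B6F1, where each point is 1 array. At 1419719_at and 1443205_at both DBA/2J arrays lie above all 3 C57BL/6J arrays, and the B6D2F1 arrays at 1443205_at spread from below 8.6 to 9.48.

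Gabra4, Gabrb1 and Gabrg1 lie in a cluster on chromosome 5 together with Gabra2, the alpha2 subunit. Gabra2 at 1455444_at was 0.941 ± 0.098 (SE) higher in DBA/2J than in C57BL/6J (adjusted p = 1.75e-12) and 0.668 ± 0.097 lower in C57BL/6J than in C57BL/6ByJ (adjusted p = 1.59e-05). None of the cluster's members was called between the 2 C57BL/6 substrains. Their differences ran from -0.609 at Gabrb1 1443205_at (adjusted p = 0.452) to 0.169 at Gabrg1 1427227_at (adjusted p = 0.783).

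No member was called in 6 other comparisons in limma. Counts at an unadjusted p are looser than calls, so the called shares are no background for them. Between C57BL/6J and C57BL/6ByJ 4 of 18 probe sets were at an unadjusted p under 0.05, against 3090 of all 45037. The called share was 0.0799% of all probe sets. Between BALB/cByJ and C57BL/6ByJ there were 3 at an unadjusted p under 0.05, with 1.19% of all called and only 1 BALB/cByJ array. F1 hybrids against the mid-parent value gave 0 at an unadjusted p under 0.05, against 1505 of all, and 0% of all were called. Later against earlier BXD strains gave 1, Gabrd 1449980_a_at (0.0653 ± 0.0274 SE, adjusted p = 0.455). That stood against 3649 of all, with 0.491% of all called. Females against males gave 0, against 1871 of all, with 0.118% of all called. The differences of the members ran from -0.03 to 0.0217. The age of the pool gave 1, against 1148 of all, with 0.00222% of all called.

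CXB strains were compared with BXD strains. For 5 of the 7 genes the brightest probe set was lower in CXB strains, namely Gabra4, Gabra5, Gabrb1, Gabrb2 and Gabrg1. Over all probe sets 10 of 18 were called, 7 lower and 3 higher, against 45.5% of all probe sets, so a call here says little about the members in particular. Gabrb2 1428203_at averaged 9.80 ± 0.095 (SD, n = 13) in CXB and 9.96 ± 0.083 (SD, n = 68) in BXD strains (difference -0.156 ± 0.028 SE, adjusted p = 1.09e-05). Gabrg1 1460408_at averaged 8.01 ± 0.084 and 8.15 ± 0.082 (-0.142 ± 0.029 SE, adjusted p = 7.21e-05). Gabra5 averaged 9.80 ± 0.105 and 9.95 ± 0.102 (-0.156 ± 0.033 SE, adjusted p = 0.000122). The 3 higher probe sets were Gabrb1 1443834_at (0.0762), Gabrb2 1450319_at (0.108) and Gabrd 1457763_at (0.0438). Gabrb2 1450319_at was lost in 6 of the 13 fits that left out a CXB strain.

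Array measures differed between these panels too. The share called present had a median of 46.9% over the CXB arrays and 50.3% over the BXD arrays. The median SD of an array was 0.684 and 0.728, and the median age of the pools 54 and 61 days. With that share as a covariate, 2 members remained called, Gabrb2 1428203_at (-0.0936 ± 0.027 SE, adjusted p = 0.0116) and Gabrg1 1460408_at (-0.101 ± 0.027 SE, adjusted p = 0.00605). Pyramidal neuron markers were lower in CXB strains for 7 of 8 genes, and choroid plexus and oligodendrocyte markers were higher for 7 of 8 and 7 of 7. Their part in the differences was not tested. Batches were compared where they held at least 2 arrays of each panel, which left 3. Gabra5 was lower in CXB in all 3, by 0.012 to 0.164, whereas Gabrb2 1428203_at and Gabrg1 1460408_at were lower in 2 of 3.

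**Figure D4:**
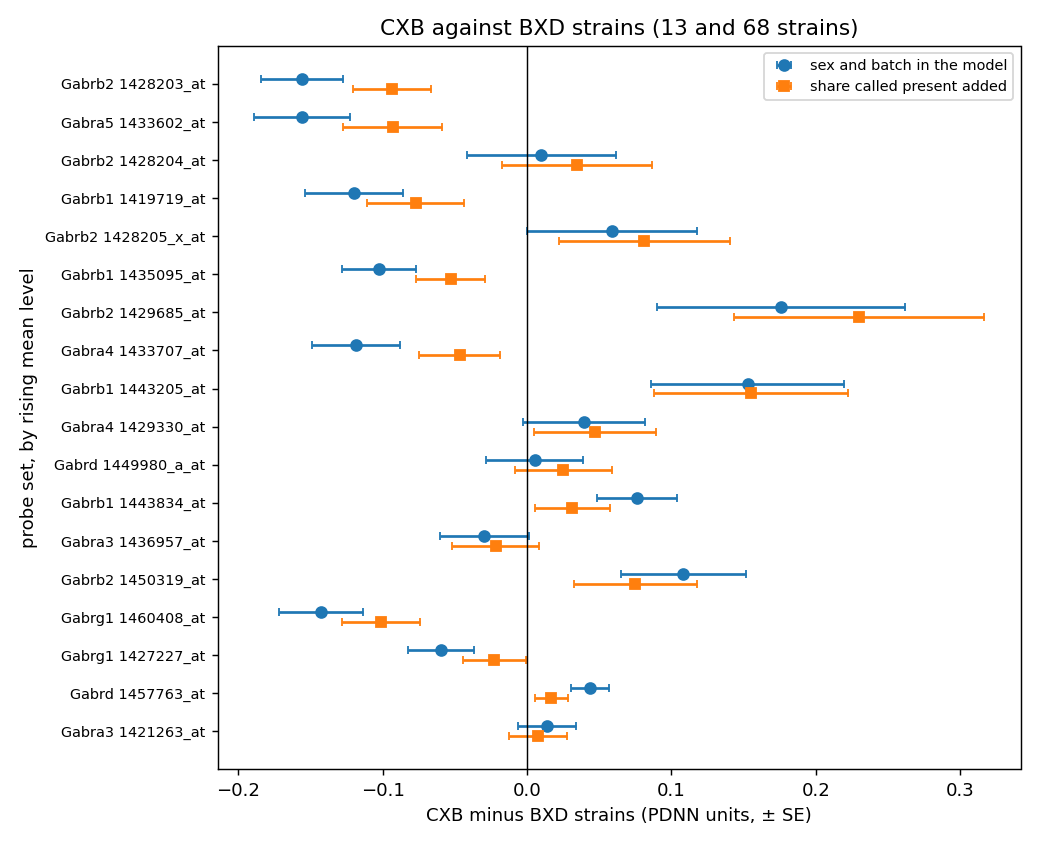
Difference between 13 CXB and 68 BXD strains for the 18 probe sets (horizontal axis, PDNN units, bars are SE), ordered by mean level with the brightest at the top. Blue circles have sex and batch in the model and orange squares also the share of probe sets called present. Most orange squares lie nearer to 0, as at Gabra4 1433707_at, which moves from -0.118 to -0.0466.

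Wild-derived strains were compared with the 13 classical strains. Gabrg1 was higher in wild-derived strains at both of its probe sets, and no other member was called, that is 2 of 18 against 24.6% of all probe sets. By mean value, 1460408_at and 1427227_at lay at percentiles 65.3 and 43.5 of all probe sets, so the second was read at a low level. At 1460408_at CAST/EiJ, PWD/PhJ, PWK/PhJ and WSB/EiJ were fitted at 8.36, 8.32, 8.53 and 8.24, while the 13 classical strains spanned 7.98 to 8.53 around a median of 8.20. The groups overlapped (difference 0.147 ± 0.055 SE, adjusted p = 0.0412). At 1427227_at the 4 strains were fitted at 7.71, 8.01, 7.97 and 7.85 (0.126 ± 0.043 SE, adjusted p = 0.0252), against 7.64 to 7.89 in the classical strains. Neither was called without PWD/PhJ (0.16 and 0.0852) or without PWK/PhJ (0.0913 and 0.0967), nor with RMA or MAS5 values, and 1460408_at was also lost without CAST/EiJ (0.148). The median 3' to 5' beta-actin ratio was 2.32 over the 7 wild-derived arrays and 1.67 over the 27 classical arrays. Oligodendrocyte markers were lower in wild-derived strains for 6 of 7 genes. The part of either was not tested.

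The last question was whether the subunits rose and fell together across strains. Over the 68 BXD strains, 8 of 21 pairs of members were positively correlated at an adjusted permutation p under 0.05, with each gene read by its brightest probe set. Of the 8, 6 linked Gabra4, Gabra5, Gabrb1 and Gabrb2 to each other. Among these brightest probe sets only that of Gabra5 had a called strain difference. Intraclass correlations were -0.034 for Gabra4, 0.0985 for Gabrb1, 0.128 for Gabrb2 and 0.18 for Gabrg1. Their strain values thus also carry the spread between the few arrays of a strain. The permutation p cannot tell spread shared by arrays from co-variation between strains, here or in the correlations over strains below. Of all pairs of genes, 17.8% had an r at least as high as the weakest of the 8 (0.321). None of the 8 was called under every alternative, and with the second brightest probe sets Gabra4 and Gabrg1 turned to -0.468, Gabrb1 and Gabrb2 to -0.148, Gabra5 and Gabrb2 to -0.073, and Gabra4 and Gabrb1 to -0.035. Gabra4 and Gabra5 had r = 0.656 (permutation p = 1e-05, adjusted p = 7e-05 over 21 pairs) and rho = 0.706 (permutation p = 1e-05), with r = 0.704 without the 2 farthest strains and 0.746 over the 13 CXB strains. Gabra4 and Gabrb2 had r = 0.571 (permutation p = 1e-05, adjusted p = 7e-05) and rho = 0.476 (permutation p = 9e-05), with r = 0.514 without the 2 farthest strains. Gabrb1 and Gabrb2 had r = 0.563 (permutation p = 1e-05, adjusted p = 7e-05) and rho = 0.474 (permutation p = 4e-05), with r = 0.551 without the 2 farthest strains. Gabra4 and Gabrg1, neighbours in the chromosome 5 cluster, had r = 0.525 (permutation p = 2e-05, adjusted p = 0.00011) and rho = 0.404 (permutation p = 0.00079), and r was 0.381 without the 2 strains farthest from the median and 0.423 without BXD14.

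The remaining called pairs were weaker. Gabra5 and Gabrb1 had r = 0.498 and Gabra4 and Gabrb1 r = 0.461 (rho 0.497 and 0.395), with adjusted permutation p = 0.00017 and 0.00032 for r. Gabra5 and Gabrb2 had r = 0.352 and Gabra3 and Gabrb2 r = 0.321 (rho 0.302 and 0.366), with adjusted permutation p = 0.0093 and 0.02 for r. Without the 2 farthest strains these 4 values were 0.439, 0.349, 0.266 and 0.288. Gabrd was called with no other member, its r running from -0.231 with Gabrb1 to 0.108 with Gabra3. With Gabra4, its partner in extrasynaptic receptors, r was 0.001 (permutation p = 0.99, adjusted p = 0.99) and rho 0.064 (permutation p = 0.6).

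The same pairs also went together between arrays of a strain. After strain, sex and batch were removed, r over 133 BXD arrays was 0.798 for Gabra4 and Gabra5, 0.669 for Gabra4 and Gabrb2 and 0.644 for Gabrb1 and Gabrb2. Each was above the r over strain values (0.656, 0.571 and 0.563). Within each of the 7 batches r ran from 0.284 to 0.932 for Gabra4 and Gabra5, from 0.112 to 0.842 for Gabra4 and Gabrb2 and from 0.239 to 0.875 for Gabrb1 and Gabrb2. Within batches, r was below 0 in at least 1 batch for Gabra4 and Gabrb1 (lowest -0.2), Gabra5 and Gabrb1 (-0.24), Gabra5 and Gabrb2 (-0.136) and Gabra3 and Gabrb2 (-0.069). Across the 134 BXD arrays the brightest probe sets of Gabra4, Gabra5, Gabrb1, Gabrb2 and Gabrg1 also went up with the 3' to 5' beta-actin ratio (r = 0.545, 0.465, 0.36, 0.508 and 0.489). With the share called present their r was 0.438, 0.204, 0.294, 0.271 and 0.408. The 3 strain-dependent Gabrb2 probe sets went down with the beta-actin ratio (r = -0.288 to -0.39). With the share called present their r was 0.093 to 0.122. The part of either measure in the correlations was not tested.

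**Figure D5:**
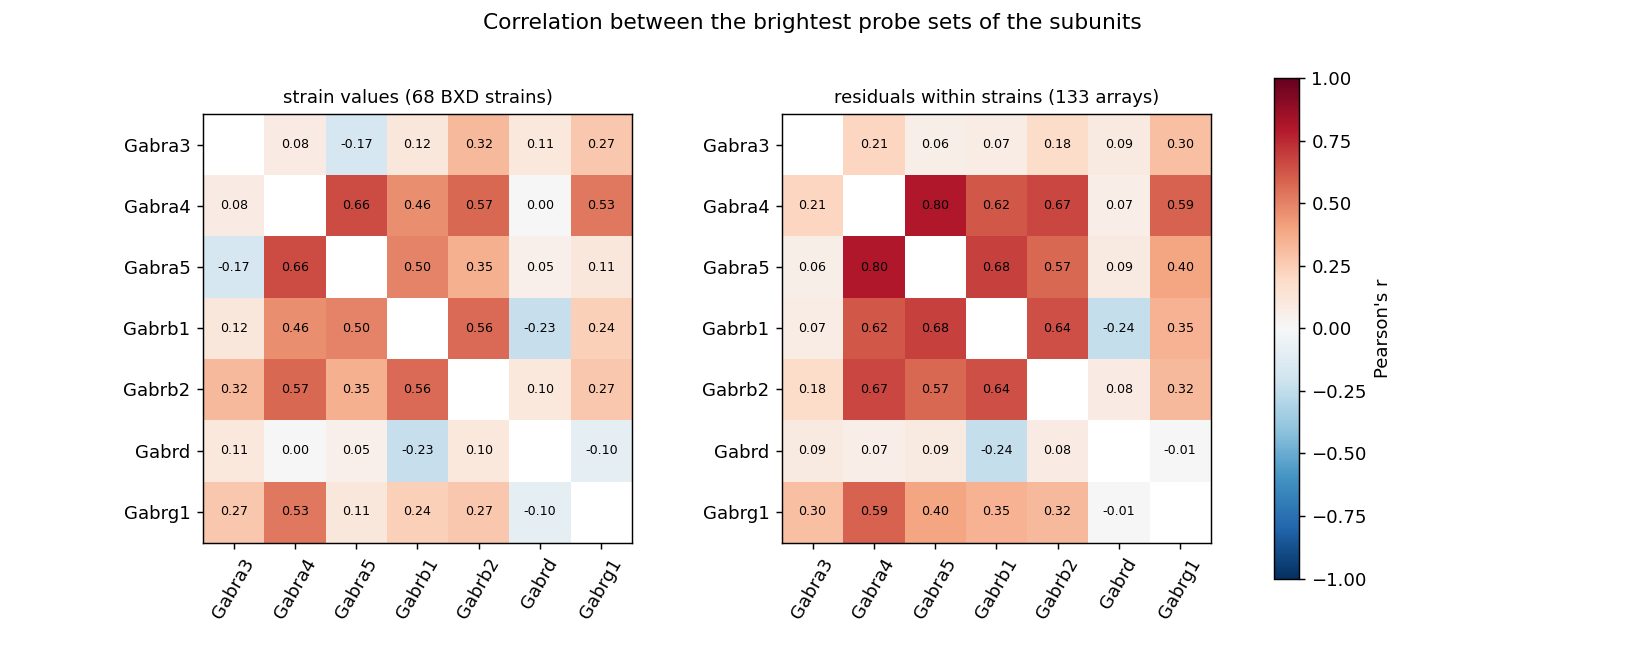
Pearson's r between the brightest probe sets of the 7 genes, over 68 BXD strain values (left) and over the residuals of 133 BXD arrays after strain, sex and batch were removed (right), on a colour scale from -1 to 1. Gabra4, Gabra5, Gabrb1 and Gabrb2 form a block of positive values in both panels, and Gabrd stays near 0 with most genes.

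Many other genes went with Gabra4 as well. Of 18192 other genes, 18.4% had an r of at least 0.5 with Gabra4, 11.6% with Gabrb2, 8.6% with Gabrg1, 6.6% with Gabra5, 3.6% with Gabrb1, 3.5% with Gabrd and 0.8% with Gabra3. Of the same genes, 7.9% were as close to Gabra4 as Gabra5 was, and 0.7% were as close to Gabra5 as Gabra4 was. For Gabrb1 and Gabrb2 these shares were 1.2% and 7%, for Gabra5 and Gabrb1 6.8% and 3.8%, and for Gabra4 and Gabrb2 13.9% and 6.6%. For Gabra4 and Gabrg1 they were 16.9% and 6.8%, and for Gabra4 and Gabrb1 21.2% and 6.2%. For Gabra5 and Gabrb2 they were 18.2% and 23.3%, and for Gabra3 and Gabrb2 5.3% and 25.8%, so many genes were at least as close to these members as their partner was.

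Probe sets of 1 gene did not always tell the same story. The brightest probe sets of Gabrb1, 1419719_at and 1435095_at, had r = 0.698 (rho 0.645, permutation p = 1e-05, adjusted p = 4e-05), and those of Gabrg1 r = 0.621 (permutation p = 1e-05, adjusted p = 4e-05) and rho = 0.493 (permutation p = 3e-05). The 2 probe sets of Gabra3 had r = 0.434 (adjusted permutation p = 0.00086). Those of Gabra4 (r = -0.074, adjusted permutation p = 0.61) and Gabrd (r = 0.068, adjusted permutation p = 0.61) did not pass the test. Gabrb1 1443834_at ran against 1435095_at (r = -0.472, adjusted permutation p = 0.0002). Gabrb1 1419719_at and 1443205_at, both called between the BXD parents, did not go together (r = -0.039, adjusted permutation p = 0.75).

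Each subunit also had its own closest genes, by r over the BXD strains among 16312 named genes. For Gabra5 these were Neurod6, a transcription factor of pyramidal neurons, Nr3c2, the mineralocorticoid receptor, and Arpc5, a subunit of the Arp2/3 complex (r = 0.836, 0.824 and 0.814). They kept r = 0.838, 0.708 and 0.638 over the CXB strains. For Gabra4 they were Seh1l, a nuclear pore protein, Vamp7, a vesicle SNARE, and Gng10, a G protein gamma subunit (0.903, 0.889 and 0.879). For Gabrb2 they were Cadps, which primes dense-core vesicles, Ulk2, an autophagy kinase, and Pdha1 of pyruvate dehydrogenase (0.834, 0.823 and 0.811). Gabrb1 was closest to Erc2, a presynaptic active zone protein, Wdr7 and Nexmif (0.766, 0.723 and 0.713). Gabrg1 was closest to Aldh6a1, Cyp20a1 and Socs4 (0.772, 0.756 and 0.744), and Gabrd to Extl3, Fsd1 and Daxx (0.727, 0.721 and 0.717). Gabra3 was closest to Resp18, Rims2 and Chml (0.67, 0.667 and 0.658), of which Resp18 had r = -0.003 over the CXB strains.

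Marker lists of cell types were set beside the members over the BXD strains. In 24 of 49 pairs of a member with a list the adjusted permutation p was under 0.05. The weakest of the 24 had an r of 0.279 in size, which 37.4% of all pairs of a gene with a list reached, from 13.3% for choroid plexus to 61.3% for astrocytes. Of the 24, 3 were called under all 7 alternatives, and they are the ones described next. Gabra5 went with pyramidal neuron markers (r = 0.716, rho 0.713, permutation p = 1e-05, adjusted p = 0.00012 over 49 pairs), and r was 0.638 over the CXB strains. Neurod6 is both a member of that list and the gene closest to Gabra5. Gabra3 ran against dentate granule neuron markers (r = -0.371, permutation p = 0.0023, adjusted p = 0.0075, rho = -0.359 with permutation p = 0.0028). Gabrb2 ran against choroid plexus markers (r = -0.324, permutation p = 0.0071, adjusted p = 0.018, rho = -0.388 with permutation p = 0.0011). Over the CXB strains these were -0.089 and 0.581. Gabrd was called with no list, and its r with granule neuron markers was 0.021 (adjusted permutation p = 0.86).

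Other genes of GABA signalling were read the same way. Of the other subunit genes, 8 of 12 were measured, and Gabra2 was the only 1 with a called strain difference among BXD strains, 1 of 8 against 8.38% of all probe sets. Gabra6 was read 0.652 ± 0.183 (SE) higher on the 1 BALB/cByJ array than in C57BL/6ByJ (adjusted p = 0.0484, with that array assumed to vary like those of the other strains), and Gabrr2 was higher in CXB than in BXD strains (0.0892 ± 0.026 SE, adjusted p = 0.00348), 1 of 8 against 45.5% of all probe sets. Between wild-derived and classical strains Gabrr1 and Gabrr2 were higher and Gabrg3 was lower (-0.238 ± 0.049 SE, adjusted p = 0.000154), 3 of 8 against 24.6%. Of 17 genes for GABA synthesis, transport and receptor clustering, 14 were measured. Gabbr1, a subunit of the metabotropic GABA-B receptor, and Nlgn2, an adhesion protein of inhibitory synapses, differed among BXD strains (intraclass correlations 0.654 and 0.462) and were lower in DBA/2J (-0.318 ± 0.086 and -0.397 ± 0.091 SE). These were 2 of 14 in both comparisons, against 8.38% and 7.24% of all probe sets. Between CXB and BXD strains 7 of the 14 were called, Slc12a5, Trak1, Gad1, Gphn and Lhfpl4 lower and Slc12a2 and Plcl1 higher, close to the 45.5% of all probe sets. Between wild-derived and classical strains 2 of the 14 were called, Gad2 higher and Trak1 lower, against 24.6% of all probe sets.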

How the data were processed

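The deposited PDNN values, which the submitters' design text describes as brought by the authors to an array mean of 8 with an SD of 2, are scores whose base is not stated, and the array SDs in the table ran from 0.633 to 0.801. The authors' deposited RMA and MAS5 tables served as alternatives, and 4 RMA columns matched another array better than their own label. Of 45101 probe sets, 64 controls were left out. Limma (3.58.1, R 4.3.3) fitted strain, sex and batch to 199 arrays (92 residual degrees of freedom). The mixed-sex BXD9 pool was left out, and the technical duplicate of B6D2F1 was averaged with its partner. Strain effects used the 133 BXD or 27 CXB arrays, and panels were compared on fitted strain values. Correlations used Python 3.11.15 with 100000 permutations. The model was tested on simulated data. Where strains had separate pools, p-values measure the spread between pools, not between mice.

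Named genes were the members through every probe set with 1 symbol, the other GABA genes past the threshold, and the 3 genes most correlated with each member. The members and lists were chosen with earlier results of these data known.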

Additional observations from a re-analysis of the deposited data

Results flagged for a closer look

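At Gabrb2 1428204_at, PWD/PhJ was fitted at 9.47, apart from the other wild-derived strains, which lay at 9.93 (CAST/EiJ), 9.86 (PWK/PhJ) and 9.90 (WSB/EiJ). Its distance from the nearest of them was large for a group of 4, and chance alone sets apart about 1 group in 20. All 18 probe sets of the members were searched in this way, so such a flag is not unusual. The header of 1 PWD/PhJ array names another strain. The related probe sets 1428205_x_at and 1429685_at were also lowest in PWD/PhJ, at 9.36 and 9.16. Both followed 1428204_at closely over the BXD strains (r = 0.987 and 0.915), so they are not separate readings.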

How the results depend on the processing

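No paired analysis was possible because the labels number no replicates that would pair strains. The strain effect at Gabrb2 1429685_at was called under all 13 alternatives tried (intraclass correlation 0.53 to 0.743). Counts of called probe sets below are of members, and the shares of all probe sets called in these fits are not given. Among BXD strains, 1 probe set was called with MAS5 values. Between DBA/2J and C57BL/6J, 1 was called with RMA values, Gabra3 1421263_at and neither Gabrb1 probe set, in a table whose 3 C57BL/6J columns match BALB/cJ arrays. With PDNN values, 1 was called with the share called present as a covariate, and 0 without a batch term or when only inbred strains and F1 hybrids set the spread. Leaving out single arrays gave 0 to 2, with 1 without C57BL/6J replicate 2. With MAS5 values, age as a covariate or a mean of at least 8, 3 were called, Gabra4 1429330_at beside both Gabrb1 probe sets. The same 3 were called without arrays with an RMA outlier share of at least 0.1, and without pools older than 100 days. Between the C57BL/6 substrains RMA values gave 2, from the same mismatched columns. Between CXB and BXD strains 4 were called with MAS5 values, 11 with arrays rescaled to an SD of 2 and 2 with the share called present. MAS5 values turned Gabrb1 1443834_at (-0.519) and Gabrd 1457763_at (-0.105). Between wild-derived and classical strains 0 were called with RMA values, with or without the mismatched columns. With MAS5 values 1 was called, Gabrb1 1419719_at and neither Gabrg1 probe set. Of the Gabrg1 probe sets 1 was called with a mean of at least 8, no batch term, quantile normalization or no pools older than 100 days, and leaving out strains gave 0 to 2. Of all 21 subunit pairs 5 were called with arrays rescaled to an SD of 2. Among the 8, Gabra4 and Gabrb1, Gabra4 and Gabrb2, Gabra5 and Gabrb1, and Gabra5 and Gabrb2 were lost there. None of the 8 was called under every alternative. With the second brightest probe sets Gabra4 and Gabrg1 (r = -0.468), Gabrb1 and Gabrb2 (-0.148), Gabra5 and Gabrb2 (-0.073), and Gabra4 and Gabrb1 (-0.035) turned. Of the 8 pairs only Gabra4 with Gabrb2 and Gabra5 with Gabrb1 stayed called there. Of 24 marker pairs 3 were called under all 7 alternatives. The count over all 49 pairs of a member with a list was 4 with MAS5 values, 10 with RMA values and 9 with rescaled arrays. MAS5 values turned Gabra4 with astrocytes (-0.072) and oligodendrocytes (-0.022), Gabrb1 with thalamus (0.046), and Gabrb2 with granule neurons (-0.01) and astrocytes (-0.131). RMA values turned Gabrb1 with astrocytes (-0.063) and Gabrb2 with granule neurons (-0.014), pyramidal neurons (-0.089) and astrocytes (-0.159). Rescaled arrays turned Gabra4 (-0.094), Gabrb1 (-0.105) and Gabrb2 (-0.198) with astrocytes and Gabrb2 with pyramidal neurons (-0.098). The causes were not tested. Rescaling, leaving out arrays with disagreeing headers, and the share called present were chosen after seeing the data. The run without disagreeing headers kept the 8 arrays headed by another BXD number. With 1 to 3 arrays per strain, the number of arrays limits the precision.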
